A study of Mus musculus with 2 samples.

Results

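The genes of cholesterol synthesis and of sterol handling inside the cell were followed through the nuclei of the mouse amygdala, in a library from Sema6d-/- mice (KO) and a library from wild-type mice (WT). The group was set by name and holds 26 of the 32285 genes in the count matrices, and each of the 26 symbols matched exactly 1 row. It covers 7 genes of the mevalonate pathway (Acat2, Hmgcs1, Mvk, Pmvk, Mvd, Idi1 and Fdps) and 3 genes that lead to lanosterol (Fdft1, Sqle and Lss). Another 9 genes lead on to cholesterol (Cyp51, Tm7sf2, Lbr, Msmo1, Nsdhl, Hsd17b7, Ebp, Sc5d and Dhcr7). The remaining genes are 5 regulators (Srebf1, Srebf2, Scap, Insig1 and Insig2) and 2 sterol carriers (Stard4 and Scp2). The rule that names them uses no measured value, but it was set with earlier results of these data known.

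Cholesterol is built from acetyl-CoA through mevalonate, farnesyl diphosphate, squalene and lanosterol in the endoplasmic reticulum. When that membrane is poor in sterol, SCAP escorts the SREBP transcription factors to the Golgi, where they are cut and released to switch on the genes of the pathway. When sterol is plentiful, INSIG proteins hold SCAP back. The blood-brain barrier keeps plasma lipoproteins out, so the brain makes its own cholesterol. In the adult brain astrocytes supply sterol to neurons, and oligodendrocytes use it for myelin.

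Both libraries came from amygdala of C57BL6/J mice aged 6 to 8 weeks, and the labels give KO and WT the same strain, region and age range, with genotype as the one labelled difference. Sema6d encodes a transmembrane semaphorin that signals through plexins. The sources used here do not say which stretch of the gene is missing, how many mice were pooled or of which sex. With 1 library for each genotype there is no replicate, and no difference between them was tested.

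After filtering, the KO library held 7911 nuclei with 56736373 UMIs and the WT library 10369 nuclei with 79305700 UMIs. Nuclei were placed in classes by marker genes, and 6957 KO and 9546 WT nuclei met the rule of a class. Astrocytes numbered 587 in KO and 742 in WT, the oligodendrocyte lineage 1319 in KO and 681 in WT, microglia 207 in KO and 92 in WT, and neurons 4844 in KO and 8031 in WT. Each class held UMIs of all 12 genes of its own marker list in both libraries. Sema6d itself, counted near the 5′ end, stood at 696 UMIs per 1000000 UMIs of the class in KO neurons and 637 in WT neurons, and at 651 in KO astrocytes and 622 in WT astrocytes. In the oligodendrocyte lineage it stood at 591 in KO and 620 in WT, and in microglia at 45.5 in KO and 59.9 in WT, on 15 UMIs in KO and 9 in WT. In the library labelled KO it was thus a little higher in neurons and astrocytes and lower in the pooled lineage and in microglia. Within the lineage it was higher in KO in both parts, at 368 in KO and 338 in WT mature oligodendrocytes. Oligodendrocyte precursors held 1608 in KO and 1552 in WT. Whether the counted part lies inside the deletion is not given. The 2 libraries shared 128 barcode sequences. The median share of mitochondrially encoded UMIs was lower in KO than in WT nuclei in every class, at 0.671% in KO and 1.04% in WT astrocytes and at 0.280% in KO and 0.662% in WT neurons.

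Levels are UMIs per 1000000 UMIs of the class (CPM), summed over its nuclei in a library. The ratio between the libraries is given as the log2 of KO over WT. Each bracket holds an exact 95% interval that covers counting error alone, not differences between mice, dissections or library preparations. A gene was called higher or lower when it had at least 20 UMIs over both libraries and differed at least 1.3-fold.

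The promoters of the members are shown first, because SREBPs act there beside NF-Y, which binds CCAAT, and Sp1, which binds GC boxes such as GGGCGG. RefSeq windows on GRCm38.p6, from 250 bases before to 50 bases after a start, matched 22 of the 26 members with 30 windows. Sqle, Fdft1, Fdps and Stard4 had no entry. The windows of 5 genes follow, because these genes return in the results below: Hmgcs1 (chr13:119690101-119690400, plus strand), Msmo1 (chr8:64733529-64733828, minus strand), Insig1 (chr5:28071162-28071461, plus strand), Sc5d (chr9:42264251-42264550, minus strand) and Scp2 (chr4:108118498-108118797, minus strand). All are written 5′ to 3′ on the gene's own strand. Capitals mark the CCAAT letters, the GC box letters GGGCGG and the sterol element letters TCACNCCAC, each on either strand.
Hmgcs1: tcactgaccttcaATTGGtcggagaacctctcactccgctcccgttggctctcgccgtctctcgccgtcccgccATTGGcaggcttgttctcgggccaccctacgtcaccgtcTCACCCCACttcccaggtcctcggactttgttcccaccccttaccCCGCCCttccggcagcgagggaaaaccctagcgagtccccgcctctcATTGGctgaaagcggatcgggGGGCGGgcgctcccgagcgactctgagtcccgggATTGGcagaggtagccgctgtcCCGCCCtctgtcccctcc
Msmo1: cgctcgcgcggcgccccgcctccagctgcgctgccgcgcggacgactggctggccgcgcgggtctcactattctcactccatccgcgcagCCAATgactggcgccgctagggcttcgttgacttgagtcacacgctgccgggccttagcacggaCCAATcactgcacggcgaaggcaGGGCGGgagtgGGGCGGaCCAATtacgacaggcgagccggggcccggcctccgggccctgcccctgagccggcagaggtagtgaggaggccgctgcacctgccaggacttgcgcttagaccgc
Insig1: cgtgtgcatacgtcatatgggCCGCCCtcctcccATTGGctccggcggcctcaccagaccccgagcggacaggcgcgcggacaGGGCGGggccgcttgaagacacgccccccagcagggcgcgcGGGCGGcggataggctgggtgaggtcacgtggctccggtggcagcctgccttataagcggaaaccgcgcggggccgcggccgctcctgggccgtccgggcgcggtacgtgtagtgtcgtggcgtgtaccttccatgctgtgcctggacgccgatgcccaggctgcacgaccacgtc
Sc5d: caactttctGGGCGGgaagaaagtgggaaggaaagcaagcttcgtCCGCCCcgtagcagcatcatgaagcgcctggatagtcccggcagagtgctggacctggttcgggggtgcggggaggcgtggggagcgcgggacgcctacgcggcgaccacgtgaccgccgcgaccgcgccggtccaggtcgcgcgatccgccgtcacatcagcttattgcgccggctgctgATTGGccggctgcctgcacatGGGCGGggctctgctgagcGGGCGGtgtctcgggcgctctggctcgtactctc
Scp2: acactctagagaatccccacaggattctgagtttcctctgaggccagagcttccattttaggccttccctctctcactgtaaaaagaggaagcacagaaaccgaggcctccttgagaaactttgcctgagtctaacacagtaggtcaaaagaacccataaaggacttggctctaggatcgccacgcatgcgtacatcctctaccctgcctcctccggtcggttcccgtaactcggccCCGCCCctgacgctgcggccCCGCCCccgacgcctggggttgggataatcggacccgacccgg
Searched on both strands, CCAAT occurred in 20 of the 30 windows (66.7%), against 37.4% of all 32851 RefSeq windows of the same length. GGGCGG occurred in 25 of the 30 windows (83.3%), against 35.7% of all windows. The sterol element letters TCACNCCAC occurred in 1 window, that of Hmgcs1 above, against 1.24% of all windows. The Msmo1 window held 3 CCAAT and 2 GGGCGG matches, the Insig1 window 1 and 3, the Sc5d window 1 and 4, and the Scp2 window 0 and 2. A match is a stretch of letters and not a measured binding site.

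Across the classes, astrocytes carried the pathway most strongly in both libraries. Of the 4 classes, astrocytes had the highest level for 21 of the 26 genes in KO and for 21 in WT, where 17.9% (KO) and 19.3% (WT) of the 17455 genes with at least 20 UMIs in each library peaked in astrocytes. For 19 members this was so in both libraries, against 12.1% of all those genes. Summed over the 26 genes, KO astrocytes held 1744 CPM and WT astrocytes 1350.1 CPM. The oligodendrocyte lineage held 975 CPM in KO and 775 CPM in WT, microglia 649 CPM in KO and 526 CPM in WT, and neurons 542 CPM in KO and 511 CPM in WT. The order astrocytes, oligodendrocyte lineage, microglia, neurons was thus the same in both libraries, but the interval of WT microglia (416 to 655) took in the WT neuron value.

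**Figure D1:**
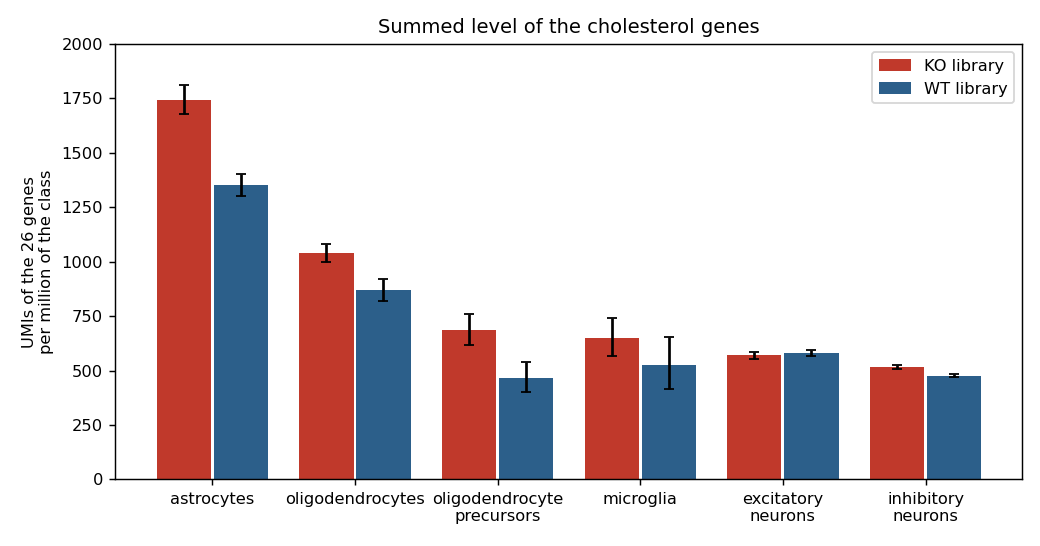
UMIs of the 26 cholesterol genes per 1000000 UMIs of the class (vertical axis) in 6 classes, with KO bars left of WT bars and exact 95% counting intervals. The tallest bars are those of astrocytes, 1744 in KO and 1350.1 in WT, and the bars of excitatory neurons nearly coincide at 570 in KO and 579 in WT.

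Set against neurons of the same library, 22 of the 26 genes were at least 1.3-fold higher in astrocytes in both libraries, where 25.9% of 17121 genes were. None was lower in both, against 33.6% of those genes. The median log2 of astrocytes over neurons was 1.51 in KO and 1.17 in WT, against -0.15 in KO and -0.07 in WT over all genes. The widest gap in the KO library was that of Srebf1, the SREBP gene tied most to fatty acid synthesis, at 89.4 CPM in KO astrocytes against 7.24 in KO neurons and 54.6 CPM in WT astrocytes against 6.81 in WT neurons. Those gaps came to 12.3-fold in KO and 8.01-fold in WT. Nsdhl, which takes part in removing the C4 methyl groups of the sterol, was 8.36-fold higher in astrocytes than in neurons in KO and 8.73-fold in WT. Msmo1, the C4 methyl oxidase, was 8.40-fold higher in KO and 6.51-fold in WT. Insig1, a gene for an INSIG protein that holds SCAP back, was 7.21-fold higher in KO and 5.26-fold in WT.

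The 4 genes outside that count were Ebp, Acat2, Scap and Lbr. Scap, the escort of SREBP, was about level between the classes, with 31.0 CPM in astrocytes and 37.6 in neurons of the KO library, and 34.1 in astrocytes and 37.0 in neurons of the WT library. Lbr, a lamin B receptor that is also a sterol reductase, belonged to the oligodendrocyte lineage. It stood at 88.1 CPM in that lineage in KO and 69.2 in WT, which was 7.25-fold the neuronal level in KO and 6.23-fold in WT. Lbr was the one member whose highest level fell in the oligodendrocyte lineage in both libraries. Tm7sf2, the other gene for a sterol C14 reductase, showed the reverse, with 9.26 CPM in the KO lineage and 5.67 in the WT lineage against 36.0 in KO astrocytes and 32.6 in WT astrocytes.

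The oligodendrocyte lineage exceeded neurons by at least 1.3-fold in both libraries for 13 of the 26 genes, against 27.0% of all genes, and fell below them for Tm7sf2 alone, against 32.1%. Astrocytes exceeded the lineage for 17 genes, against 20.9% of all genes, and stood below it for Ebp and Lbr, against 22.7%. Microglia exceeded neurons for 7 genes, against 29.2% of all genes, and stood below them for 4 (Idi1, Lss, Cyp51 and Srebf2), against 35.7%. Genes passed this filter mainly through the neurons, and 21 of the 26 had too few UMIs in microglia. For all 4 lower genes the counting interval of microglia over neurons crossed 0 (log2) in both libraries. For none of the 7 higher genes did it stay above 0 in both. These microglial calls are thus not separated from counting error. Within the lineage, mature oligodendrocytes exceeded their precursors for 11 of the 19 genes with enough UMIs, against 23.1% of all genes. For none was the reverse found, against 21.2%. Mature oligodendrocytes held 2391447 UMIs in KO and 1353497 in WT, against 524713 in KO and 409761 in WT precursors. Genes thus passed the filter mainly through the mature side, and 13 of the 26 had too few UMIs in precursors. Insig1 stood at 94.5 CPM in KO oligodendrocytes against 30.5 in KO precursors, and at 78.3 in WT oligodendrocytes against 26.8 in WT precursors. Among neurons, excitatory exceeded inhibitory for 6 genes (Hmgcs1, Sqle, Lss, Nsdhl, Insig1 and Srebf2), against 13.7% of all genes, and inhibitory exceeded excitatory for 0, against 18.2%. Srebf2, the SREBP gene tied most to cholesterol synthesis, stood at 73.9 CPM in KO excitatory and 55.7 in KO inhibitory neurons, and at 88.5 in WT excitatory and 62.8 in WT inhibitory neurons.

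**Figure D2:**
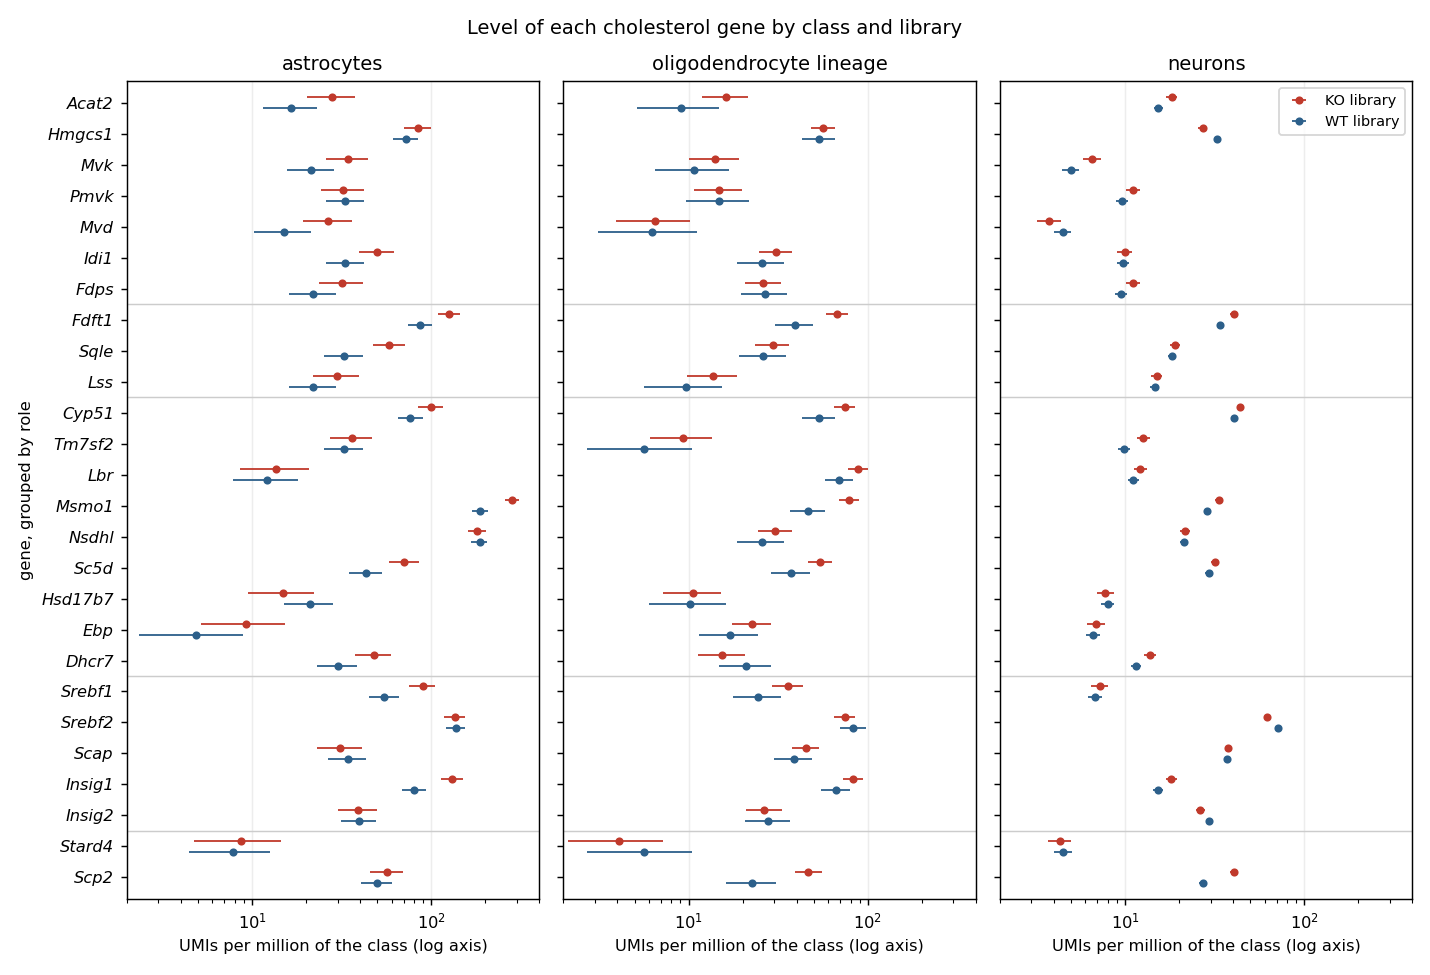
UMIs per 1000000 UMIs of the class (horizontal log axis) of each of the 26 genes in astrocytes, the oligodendrocyte lineage and neurons, in the KO library (red, upper point) and the WT library (blue, lower point), with exact 95% counting intervals and grey lines between role groups. Msmo1 in astrocytes lies at 281 in KO and 186 in WT with intervals that do not meet, while Srebf2 in astrocytes lies at 135 in KO and 137 in WT.

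In astrocytes most of the enzymes of the pathway stood higher in the KO library, while the SREBP2 gene and its escort did not. All 26 genes had at least 20 UMIs over both libraries, and 14 of them (53.8%) were at least 1.3-fold higher in KO, against 15.7% of the 11428 genes counted as deeply. Only Hsd17b7 was at least 1.3-fold lower, against 18.2% of all genes. For 11 of the 14 the counting interval also stayed above a ratio of 1, against 6.34% of all genes. The median log2 ratio was 0.49, against -0.03 over all genes, and 20 of the 26 lay above 0, against 46.9%. The sum over the 26 genes was 1744 CPM in KO (1679.9 to 1809.5) and 1350.1 CPM in WT (1300.3 to 1401), a log2 ratio of 0.37 (0.29 to 0.45). Leaving out Msmo1, which had the most UMIs, gave 0.33.

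Of the 7 genes of the mevalonate pathway, 5 were higher in KO astrocytes by the 1.3-fold rule. Mvd, the decarboxylase that forms isopentenyl diphosphate, had 26.7 CPM in KO and 15.1 in WT, a log2 ratio of 0.82 (0.12 to 1.54). Acat2, the cytosolic thiolase at the start of the route, had 27.9 CPM in KO and 16.6 in WT (log2 0.75, 0.08 to 1.44). Acat2 has a close paralogue, Acat3, so its assigned reads are uncertain. Mvk, mevalonate kinase, had 34.1 CPM in KO and 21.4 in WT (log2 0.67, 0.07 to 1.28), and Idi1, the isomerase, 49.7 in KO and 33.1 in WT (log2 0.58, 0.10 to 1.07). These intervals stayed above 0, with lower ends between 0.07 and 0.12. The calls of Acat2 and Idi1 depended on the nuclei used, since Acat2 came to 0.24 with each nucleus thinned to 1000 UMIs and Idi1 to 0.28 among nuclei with at most 1% mitochondrial UMIs, both under the fold. Fdps reached a log2 ratio of 0.53 with an interval that crossed 0, and Hmgcs1 and Pmvk were not called.

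All 3 genes from farnesyl diphosphate to lanosterol were called higher in KO astrocytes. Sqle, squalene epoxidase, a rate-limiting step, had 58.4 CPM in KO and 32.6 in WT (log2 0.84, 0.37 to 1.31). Fdft1, squalene synthase, had 125 CPM in KO and 86.7 in WT (log2 0.53, 0.23 to 0.83). For both genes the KO and WT counting intervals did not overlap. With nuclei thinned to 1000 UMIs both calls were lost, at a log2 ratio of 0.20 for Sqle and 0.22 for Fdft1, and Fdft1 also fell short at 0.36 in nuclei with at most 2 markers of another glial class. Lss, which closes the ring to lanosterol, came to a log2 ratio of 0.44 with an interval across 0.

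Of the 9 genes from lanosterol to cholesterol, 4 were called higher and 1 lower in KO astrocytes. Msmo1 had 281 CPM in KO (256 to 308) and 186 in WT (168 to 206), a log2 ratio of 0.60 (0.40 to 0.80). Sc5d, the sterol C5 desaturase, had 70.8 CPM in KO and 43.4 in WT (log2 0.71, 0.29 to 1.12). Dhcr7, the last reductase of one branch, had 47.8 CPM in KO and 30.2 in WT (log2 0.66, 0.16 to 1.17), but a log2 ratio of -0.069 once each nucleus was thinned to 1000 UMIs. Of these, Msmo1 and Sc5d had counting intervals that did not overlap between the libraries. Cyp51, the lanosterol demethylase, fell just short of the fold with 99.3 CPM in KO and 76.5 in WT (log2 0.38, 0.05 to 0.70), and passed it under 4 alternatives, at up to 0.44. Nsdhl did not differ beyond its counting error, with 180.03 CPM in KO and 186 in WT (log2 -0.04, -0.27 to 0.18). Hsd17b7, a reductase of the C4 demethylation complex, had only 24 UMIs in KO and 43 in WT (log2 -0.49, -1.28 to 0.26), and Ebp, the fourth higher gene, had 15 in KO and 10 in WT.

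The regulators split. Insig1 had 130.4 CPM in KO astrocytes and 80.4 in WT astrocytes (log2 0.70, with a lower end of 0.40), and Srebf1 89.4 in KO and 54.6 in WT (log2 0.71, 0.35 to 1.08). Both were higher in KO with KO and WT intervals apart. Srebf2 had 135 CPM in KO and 137 in WT (log2 -0.02, -0.28 to 0.24). Insig2, at -0.01, and Scap, at -0.14, were likewise not called. The sterol carriers Stard4 (0.16) and Scp2 (0.18) were not called either.

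The astrocyte marker list moved with these genes. Its 12 genes summed to 12438 CPM in KO astrocytes and 10254 in WT astrocytes, 11 of the 12 were higher in KO, and none was at 0. Microglial markers in astrocytes summed to 138 CPM in KO and 101 in WT, with Siglech at 0 in KO and Inpp5d at 0 in WT. Oligodendrocyte markers came to 884 CPM in KO and 813 in WT, and neuron markers to 2128 in KO and 2282 in WT. The part of these levels in the astrocyte ratios was not tested. With astrocytes split by whether a UMI of Etnppl was found, 10 of 23 genes with enough UMIs were called higher among the 228 KO and 320 WT nuclei that had one, against 19.9% of all genes. Among the 359 KO and 422 WT nuclei without one, 12 of 25 were called higher, against 17.1%. The median log2 ratios were 0.18 with Etnppl and 0.24 without, both under the 0.49 of all astrocytes, and 0.47 when both libraries were given the same weights of the 2 kinds of nuclei.

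**Figure D3:**
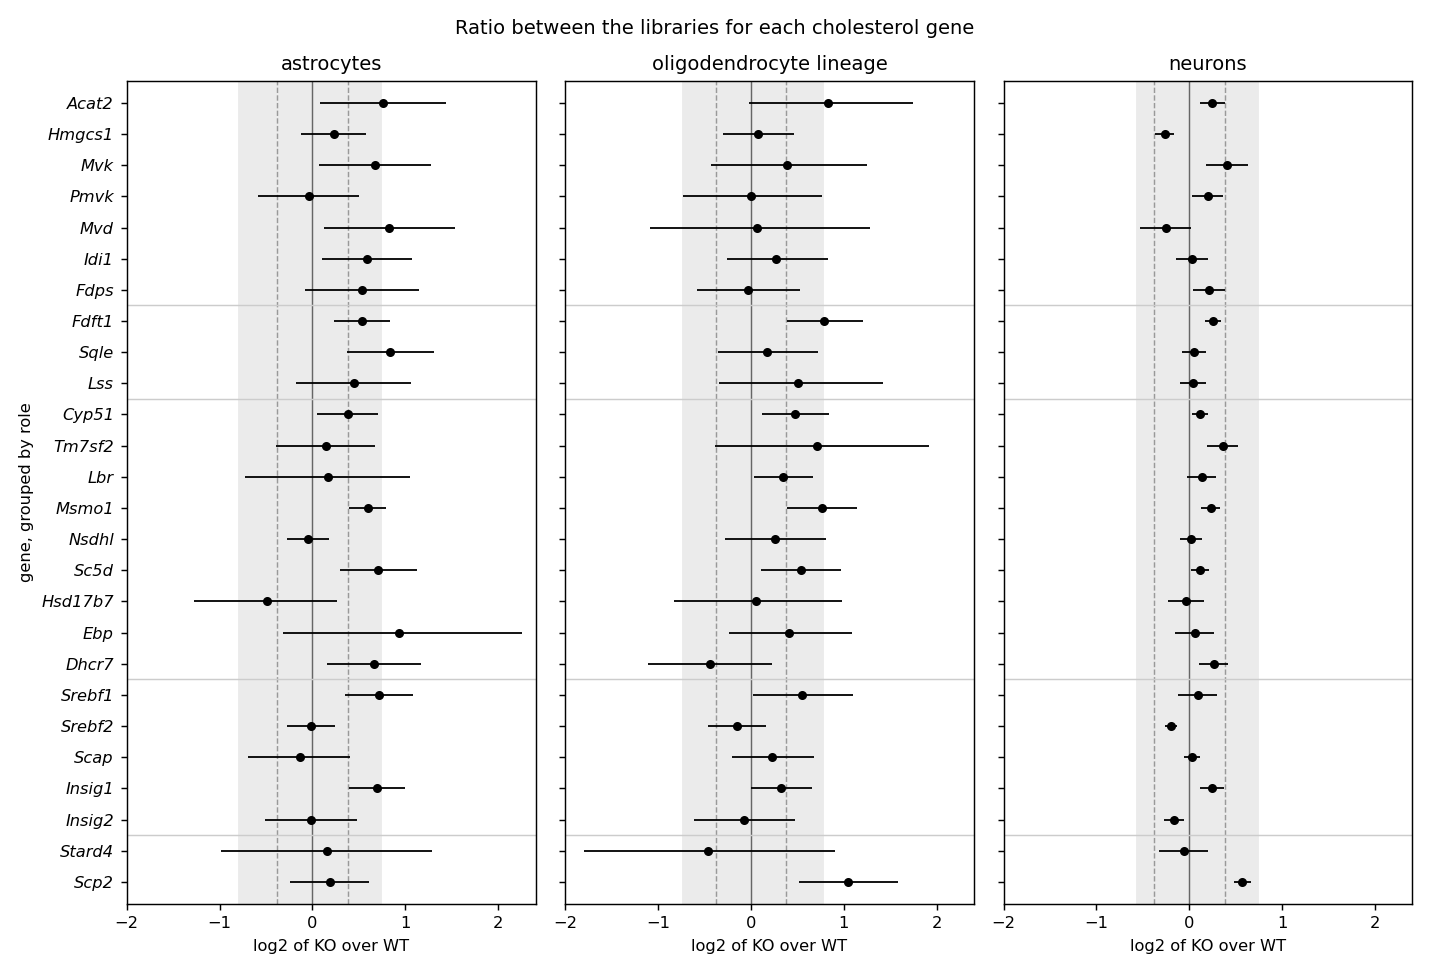
Log2 of KO over WT (horizontal axis) of each of the 26 genes in astrocytes, the oligodendrocyte lineage and neurons, with exact 95% counting intervals. The shaded band spans the 5th to 95th percentile of all genes with at least 20 UMIs, and dashed lines mark 1.3-fold. In astrocytes 14 points lie right of the upper dashed line, in the lineage 11 and in neurons 2.

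In the oligodendrocyte lineage the higher genes were fewer and partly others. Of the 26 genes, 11 were at least 1.3-fold higher in KO, against 17.5% of 11921 genes, and Dhcr7 and Stard4 were lower, against 16.3%. For 6 of the 11 the interval stayed above a ratio of 1, against 7.69% of all genes. The median log2 ratio was 0.30, against -0.00 over all genes. The sum was 975 CPM in KO (939 to 1011) and 775 in WT (735 to 817), a log2 ratio of 0.33 (0.24 to 0.42).

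Scp2, which encodes sterol carrier protein 2 and the peroxisomal thiolase SCPx, stood furthest apart, with 46.6 CPM in KO and 22.7 in WT (log2 1.04, 0.52 to 1.59). Fdft1 had 67.6 CPM in KO and 39.1 in WT (log2 0.79, 0.39 to 1.20), and Msmo1 78.9 in KO and 46.5 in WT (log2 0.76, 0.39 to 1.14). For these 3 genes the KO and WT intervals did not overlap. Srebf1 had 35.7 CPM in KO and 24.4 in WT (log2 0.55, 0.02 to 1.10), Sc5d 54.2 in KO and 37.4 in WT (log2 0.53, 0.11 to 0.97), and Cyp51 74.1 in KO and 53.3 in WT (log2 0.47, 0.12 to 0.84). Their KO and WT levels had intervals that overlapped. With nuclei thinned to 1000 UMIs the Srebf1 ratio turned to -0.23 and that of Sc5d came to 0.27, under the fold. Among nuclei with at most 1% mitochondrial UMIs Srebf1 came to 0.33, also under the fold, and Scp2 to 2.52. That setting left 163 mature and 67 precursor nuclei in WT. The Scp2 ratio there rests on fewer WT UMIs, and its interval is not given. Fdft1 lost its call, at 0.30, in nuclei with at most 2 markers of another glial class.

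The other genes with many UMIs in the lineage were not called. Lbr had 88.1 CPM in KO and 69.2 in WT (log2 0.35, 0.03 to 0.67), and passed the fold under 3 alternatives, at up to 0.50. Insig1 had 83.0 CPM in KO and 66.4 in WT (log2 0.32, -0.00 to 0.65), and passed the fold, at 0.40, with at most 1% mitochondrial UMIs. Srebf2 had 74.4 CPM in KO and 82.8 in WT (log2 -0.15, -0.46 to 0.16). Srebf2 was thus without a call in the lineage as in astrocytes.

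Mature oligodendrocytes numbered 1159 in KO and 560 in WT, and precursors 160 in KO and 121 in WT. Mature nuclei were thus a larger share of the lineage in KO than in WT. In mature oligodendrocytes 8 genes were called higher, against 19.1% of all genes, and 3 lower (Dhcr7, Insig2 and Stard4), against 17.1%. Their median log2 ratio over the 26 genes was 0.18 and that of the sum 0.26 (0.16 to 0.36), both under the pooled lineage. In precursors the median was 0.45, over the genes with enough UMIs, and the sum came to 0.55 (0.30 to 0.81). Among mature oligodendrocytes the thiolase gene Acat2 had 41 UMIs in KO and 8 in WT, or 17.1 CPM in KO and 5.91 in WT (log2 1.54, 0.42 to 2.84). Among precursors Acat2 had 6 UMIs in KO and 8 in WT. In precursors 13 of the 26 genes had enough UMIs. Of these, 8 were called higher, against 21.3% of all genes, and 0 lower, against 18.6%. KO precursors held 524713 UMIs and WT precursors 409761, so a gene high in KO passed the filter more easily. The counts and the median in precursors are limited by this. The interval stayed above 0 for Fdft1, with 43.8 CPM in KO and 12.2 in WT (log2 1.84, 0.42 to 3.60), and for Insig2, with 40.02 in KO and 14.6 in WT (log2 1.45, 0.09 to 3.05), against 4.17% of all genes. These 2 ratios rest on 23 UMIs in KO and 5 in WT, and on 21 in KO and 6 in WT. Both genes thus passed the filter through the KO library alone.

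Oligodendrocyte markers summed to 21353 CPM in the KO lineage and 18317 in the WT lineage, with 11 of 12 higher in KO, and precursor markers to 3904 in KO and 4485 in WT, with 7 of 12 higher. Astrocyte markers came to 661 CPM in KO and 581 in WT, with 8 of 12 higher in KO, and neuron markers to 1785 in KO and 1984 in WT, with 4 of 12 higher. Mural markers came to 21.3 CPM in KO and 7.94 in WT, and endothelial markers to 3.43 in KO and 18.1 in WT. Microglial markers came to 168 CPM in KO and 107 in WT, and fibroblast markers to 11.7 in KO and 2.84 in WT, with Dcn, Lum and Slc6a13 at 0 in WT. The part of these levels in the ratios of the lineage was not tested.

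Microglia were too few for a reading of most members. In 207 KO and 92 WT nuclei, 5 of the 26 genes had at least 20 UMIs over both libraries, and 21 had fewer. KO microglia held 329769 UMIs and WT microglia 150287, so genes passed this filter mainly through the KO library. Hmgcs1, Msmo1, Scap and Scp2 were at least 1.3-fold higher in KO, against 27.1% of 5356 genes, and none was lower, against 23.1%. Hmgcs1, HMG-CoA synthase, had 24 UMIs in KO and 7 in WT (log2 0.64, -0.61 to 2.10). Scap had 17 UMIs in KO and 3 in WT (log2 1.37, -0.42 to 3.78). Every one of the 5 intervals crossed 0, while 4.59% of all genes were called higher with an interval past it, and so did that of the summed level (log2 0.30, -0.07 to 0.70), so a difference was not detectable at this depth. With classes taken from clusters Msmo1, at 0.18, and Scp2, at 0.37, were no longer called.

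In neurons, with 45154274 UMIs in KO and 70150054 in WT, the pathway differed little between the libraries. Of the 26 genes, 2 were at least 1.3-fold higher in KO, against 16.2% of 19143 genes, and 0 were lower, against 9.08%. The median log2 ratio was 0.10, against 0.05 over all genes. The sum was 542 CPM in KO (535 to 548) and 511 in WT (506 to 516), a log2 ratio of 0.08 (0.06 to 0.11), and 0.05 without Scp2.

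Scp2 was the first of the 2 genes, with 40.3 CPM in KO neurons (38.5 to 42.2) and 27.1 in WT neurons (25.9 to 28.4), a log2 ratio of 0.57 (0.48 to 0.66). It was higher in KO in 22 of 22 neuron clusters that held at least 20 nuclei of each library, with log2 ratios between 0.18 and 1.19. These clusters share the same 2 libraries and are no replicates of a genotype. It was higher in KO both in excitatory neurons (log2 0.78, 0.55 to 1.02) and in inhibitory neurons (log2 0.54, 0.42 to 0.67). Mvk was the second, with 6.58 CPM in KO and 4.98 in WT (log2 0.40, 0.17 to 0.63), and was higher in KO in 8 of the 12 clusters with at least 20 of its UMIs. Both intervals stayed above 0, as for 10.6% of all genes. Mvk fell short of the fold, at log2 ratios between 0.31 and 0.36, with clusters, either other scaling or equal cluster weights.

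Scp2 lies on chromosome 4 (chr4:108043839-108144998, minus strand), in a gene that spans 101 kb and overlaps Podn on the same strand. The printed window lies inside that span. Podn had 5.36 CPM in KO neurons and 4.72 in WT neurons (log2 0.18, -0.06 to 0.43). Of the genes within 250 kb, 0610037L13Rik also stood higher, with 42.6 CPM in KO neurons and 30.02 in WT neurons (log2 0.51, 0.42 to 0.60). Lrp8, a lipoprotein receptor gene, had 56.9 CPM in KO and 58.1 in WT (log2 -0.03), Echdc2 a log2 ratio of 0.00 and Zyg11b one of -0.21. In neurons these neighbours did not share 1 direction. In astrocytes 0610037L13Rik had a log2 ratio of 0.37 (-0.10 to 0.84) and Echdc2 one of 0.63 (0.05 to 1.22). In the lineage they came to 0.27 and 0.55, with intervals across 0. Cpt2 and Coa7 lay below 0, at -0.20 and -0.07 in astrocytes and -0.46 and -0.28 in the lineage, also with intervals across 0. A part of the region in the Scp2 ratio was not tested.

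The genes of SREBP2 and of HMG-CoA synthase leaned the other way in neurons, though short of the fold. Srebf2 had 62.1 CPM in KO neurons and 71.3 in WT neurons (log2 -0.20, -0.26 to -0.13), and was lower in KO in 18 of 22 clusters. Hmgcs1, singled out after its values were seen, had 27.1 CPM in KO and 32.6 in WT (log2 -0.27, -0.37 to -0.16), and was lower in KO in 20 of 22 clusters. Both intervals lay below 0. The share of all genes with such an interval, or lower in as many clusters, is not given, so neither gene is shown to be unusual. Insig2 and Mvd leaned lower in KO neurons as well. Fdft1, with 40.3 CPM in KO and 33.8 in WT (log2 0.25, and 0.41 with thinned nuclei), and Msmo1, with 33.5 in KO and 28.6 in WT (log2 0.23), had intervals above 0. Cyp51 (log2 0.12) and Scap (log2 0.03) were close to level.

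**Figure D4:**
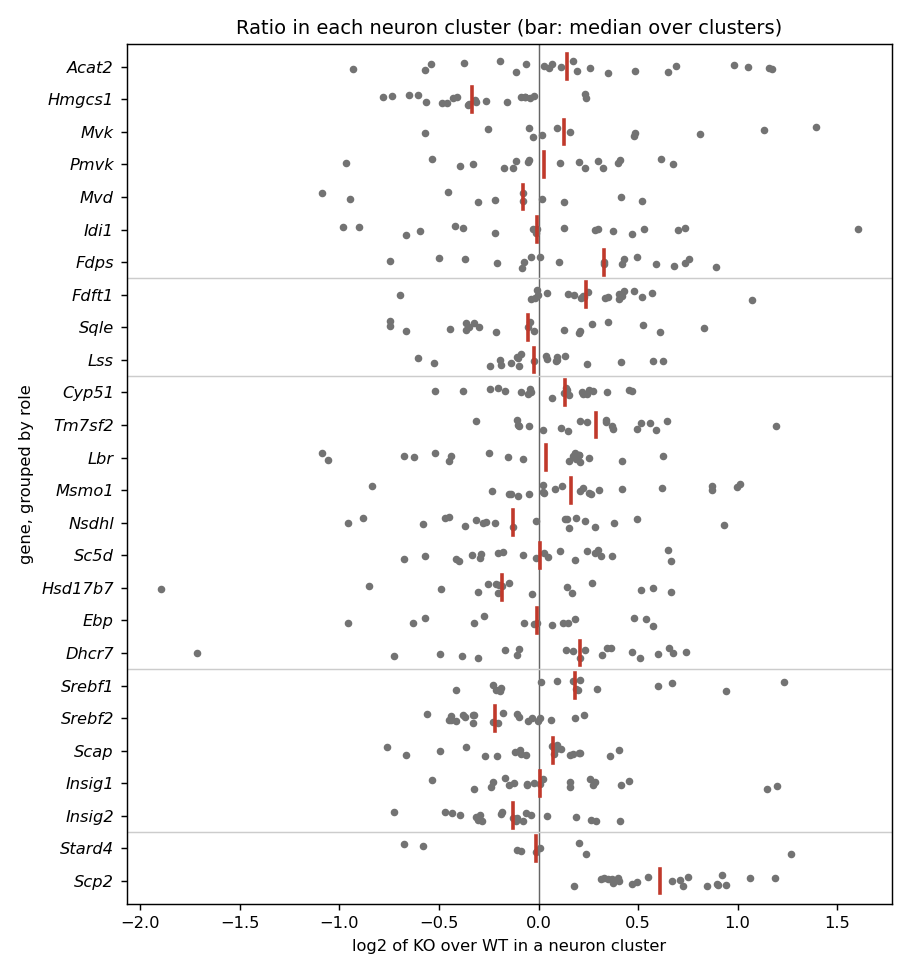
Log2 of KO over WT (horizontal axis) of each of the 26 genes in each neuron cluster with at least 20 UMIs of the gene, 1 grey point for a cluster and a red bar at the median over clusters. All 22 points of Scp2 lie right of 0, between 0.18 and 1.19, while 18 of 22 points of Srebf2 and 20 of 22 points of Hmgcs1 lie left of 0.

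In excitatory neurons 3 genes were called higher, against 15.9% of 15044 genes, and 5 lower, against 11.1%. Hmgcs1 had 31.2 CPM in KO and 43.8 in WT (log2 -0.49, -0.70 to -0.28). Insig2, the INSIG gene that SREBPs do not control, had 20.6 CPM in KO and 27.4 in WT (log2 -0.41, -0.68 to -0.15). For these 2 genes the KO and WT intervals did not overlap. Mvd (log2 -0.60, -1.22 to -0.01), Hsd17b7 (log2 -0.45, -0.90 to -0.02) and Stard4 (log2 -0.50, -1.09 to 0.07) were the other 3 lower genes. For 4 of the 5 the interval stayed below 0, against 6.59% of all genes. The higher ones were Scp2, Mvk and Acat2.

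In inhibitory neurons 4 genes were called higher, against 16.0% of 17487 genes, and 0 lower, against 9.02%. Besides Scp2 they were Mvk (log2 0.50), Fdps, farnesyl diphosphate synthase (10.6 CPM in KO and 7.80 in WT, log2 0.45), and Tm7sf2 (12.2 in KO and 9.29 in WT, log2 0.39). All 4 intervals lay above 0, against 10.0% of all genes. Mvk and Scp2 were the genes called higher in both kinds of neuron. Astrocyte markers in all neurons came to 601 CPM in KO and 643 in WT, and oligodendrocyte markers to 332 in KO and 349 in WT, so neither sum was higher in the KO neurons, although 7 of the 12 astrocyte markers and 8 of the 12 oligodendrocyte markers were higher there. Microglial markers in neurons came to 61.8 CPM in KO and 46.5 in WT, with 12 of 12 higher in KO, and their part in the ratios was not tested.

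Set side by side, the ratios of 7 genes had counting intervals in astrocytes that lay wholly above those in neurons (Hmgcs1, Sqle, Msmo1, Sc5d, Mvd, Insig1 and Srebf1), against 3.87% of 11353 genes. None lay wholly below, against 5.98%. Hmgcs1 had a log2 ratio of 0.23 in astrocytes and -0.27 in neurons, and Insig1 0.70 in astrocytes and 0.24 in neurons. In the oligodendrocyte lineage 2 genes (Msmo1 and Fdft1) had intervals wholly above those in neurons, against 4.74% of 11843 genes, and 0 wholly below, against 7.18%. Between astrocytes and the lineage 0 of the 26 pairs of intervals were apart, against 2.16% of 10769 genes that were wholly higher in astrocytes and 1.84% that were wholly lower. The difference between classes was not tested beyond counting error.

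Of 18 genes for cholesterol transport, efflux and turnover, 17 had enough UMIs in astrocytes, and 2 of these were called higher, against 15.7% of all genes, and 0 lower, against 18.2%. In the lineage 5 of 15 were called higher, against 17.5%, and 0 lower, against 16.3%. In neurons 1 of 17 was called higher, against 16.2%, and 0 lower, against 9.08%. The median log2 ratio of the list was nonetheless 0.25 in astrocytes, against -0.03 over all genes, and 0.20 in the lineage, against -0.00. It was -0.02 in neurons, against 0.05. The lean above 0 in the glial classes was thus not confined to the 26 genes. Lrp1, a large endocytic receptor for lipoproteins, had 171 CPM in KO astrocytes and 127 in WT astrocytes (log2 0.44, 0.19 to 0.69), and 73.6 in KO neurons and 74.8 in WT neurons (log2 -0.02). Cyp46a1, the hydroxylase that clears cholesterol from neurons, had 124 CPM in KO neurons and 119.5 in WT neurons (log2 0.06), and Gramd1b, an endoplasmic reticulum sterol transporter, 239 in KO and 276 in WT (log2 -0.21). Lrp8 in neurons was given above. Of these 4, only Lrp1 was called in astrocytes and in the lineage, and none in neurons. In microglia 3 of the 11 measured genes of the list were called higher, against 27.1% of all genes, and 2 lower, against 23.1%.

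Of 13 fatty acid genes that SREBPs control, 6 were called higher and 0 lower in astrocytes, where 15.7% of all genes were higher and 18.2% lower. In the lineage 5 of 12 were higher and 1 lower, against 17.5% and 16.3% of all genes. In microglia 2 of 5 were higher and 1 lower, against 27.1% and 23.1%, and in neurons 0 of 13 either way, against 16.2% and 9.08%. Scd2, the main stearoyl-CoA desaturase of brain, had 733 CPM in the KO lineage and 434 in the WT lineage (log2 0.76, 0.64 to 0.88), but 420.3 in KO astrocytes and 345 in WT astrocytes (log2 0.28). Acaca, acetyl-CoA carboxylase, had 391 CPM in the KO lineage and 273 in the WT lineage (log2 0.52, 0.36 to 0.67), and a log2 ratio of -0.05 in astrocytes. Elovl5, a fatty acid elongase, was called higher in astrocytes (log2 0.51), and Elovl6, another elongase, was lower in the lineage (log2 -0.55). Of 8 genes on the isoprenoid branch, which leaves the pathway at farnesyl diphosphate, 1 was called higher and 2 lower in astrocytes, near the shares of all genes there (15.7% higher and 18.2% lower). In the lineage 0 of 8 were called either way, against 17.5% higher and 16.3% lower of all genes. In microglia 1 of 5 was higher and 1 lower, against 27.1% and 23.1%, and in neurons 0 of 8 were higher and 1 lower, against 16.2% and 9.08%. Nus1, a subunit of the dolichol-forming transferase, had 31.7 CPM in KO astrocytes and 49.2 in WT astrocytes (log2 -0.64, -1.15 to -0.14). Ggps1, Pdss1 and Pdss2 had log2 ratios of -0.26, 0.07 and 0.38 there.

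Some members overlap other genes, and whether the counting used strand is not given. Srebf1 overlaps Rai1, Cyp51 overlaps Akap9, Fdft1 overlaps Ctsb, Lbr overlaps Dnah14 and Mvd overlaps Gm20388 on the opposite strand. Fdps overlaps Gm43738 and Tm7sf2 overlaps Vps51 on the same strand. Their counts are uncertain to that extent.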

How the data were processed

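Single-nucleus libraries made with version 2 of the 10x 5′ kit were analysed, 1 for each genotype. The authors deposited raw UMI counts for each gene and nucleus barcode. Per the submitters' processing notes they used Cell Ranger 6.0.0 and mm10. The sources used here do not name the annotation, the rule for calling nuclei, or how intronic reads and strand were handled. Symbols matched 32158 of 32285 identifiers. Gene positions come from GENCODE on the same build and promoter sequences from RefSeq.

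Barcodes with under 500 genes (143 in KO, 12 in WT) or over 5% (428 in KO, 259 in WT) mitochondrially encoded UMIs were left out, and Scrublet (scanpy 1.11.5) doublets were removed (222 in KO, 422 in WT, expected rate 0.8% per 1000 nuclei). Median depth was 6418 UMIs in KO and 7196 in WT nuclei. Nuclei entered a glial class with at least 6 of its 12 markers, at most 5 of another glial list and at most 6 of 12 neuron markers. For mature oligodendrocytes the precursor list was not limited. Nuclei entered the neuron class with at least 8 neuron markers. Vascular, fibroblast, ependymal and border macrophage markers excluded a nucleus. These limits were chosen after seeing the data. Neurons with at least 2 markers of one transmitter type and at most 1 of the other were called excitatory or inhibitory. In no class were 954 KO and 823 WT nuclei.

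UMIs were summed for each class and library. With 1 library for each genotype no test was run and no p-value computed. Intervals are exact 95% Poisson or conditional binomial (Clopper-Pearson, scipy 1.17.1) intervals for counting error. The calculation was checked on simulated counts. Members, related lists and tests were chosen with earlier results of these data known. For the 4 main classes, values are given for members called with an interval past 1. Outside microglia they are also given for the 6 members with the most UMIs, some as a log2 ratio alone. In the subclasses only some such members are given, as with Acat2, which had the highest ratio in mature oligodendrocytes. Values are also given for the 4 genes with the most UMIs of each related list. Further members given with values were chosen after their values were seen.

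Alternatives were a stricter gate, Leiden clusters (leidenalg 0.10.2, resolution 1.0, 30 components, 15 neighbours, 2000 variable genes), doublets kept, at least 1000 genes, at most 1% mitochondrial UMIs, median-of-ratios and TMM (edgeR 4.0.16, R 4.3.3) scaling, at least 100 or 1 UMIs, a 1.5-fold rule, equal weights of subclasses in both libraries, and nuclei thinned to 1000 UMIs. Added after seeing the data were at most 2 markers of another glial class, equal weights of astrocytes with and without Etnppl, and equal weights of neuron clusters.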

Additional observations from a re-analysis of the deposited data

Results flagged for a closer look

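Some members had a ratio above 1 in one class and below 1 in another, with both counting intervals past 1. They were picked by this rule from the pairs of classes. The share of all genes that meet it is not given here, so they are not shown to be unusual. Mvd, which encodes mevalonate diphosphate decarboxylase, had a log2 ratio of KO over WT of 0.82 in astrocytes and -0.60 in excitatory neurons, a difference of 1.43. In UMIs, Mvd had 43 in KO and 31 in WT astrocytes, and 37 in KO and 71 in WT excitatory neurons. Insig2, which encodes a retention factor of SCAP, had a log2 ratio of 1.45 in oligodendrocyte precursors and -0.16 in neurons, a difference of 1.62, and of -0.41 in excitatory neurons, a difference of 1.86. The Insig2 ratio in precursors rests on 21 UMIs in KO and 6 in WT, so Insig2 passed the filter there through the KO library alone. Both Insig2 differences use that same ratio, and the excitatory neurons are part of the neurons. The differences between classes were not tested.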

How the results depend on the processing

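No paired analysis was possible because each genotype has 1 library. Scaling moved all genes by under 0.1 (log2) in every class. For medians and counts of called genes, 108 recomputed values stayed within 0.1 (log2) or 1.5 times of those reported and 35 did not. In astrocytes the median of 0.49 became 0.38 with at most 1% mitochondrial UMIs, 0.30 with thinned nuclei and 0.38 with at least 100 UMIs, where 8 genes were called higher. The 1 lower gene became 2 (thinned), 0 (at least 100 UMIs), 0 (1.5-fold) and 3 (at most 2 markers of another glial class). In the oligodendrocyte lineage the 11 higher genes became 6 (at least 100 UMIs) and 5 (1.5-fold). The 2 lower genes became 0 with clusters, at most 1% mitochondrial UMIs, at least 100 UMIs or 1.5-fold, and 4 with thinned nuclei or at most 2 markers of another glial class.

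In microglia the median of 0.60 became 0.27 (clusters), 0.40 (thinned) and 0.42 (at least 1 UMI). The 4 higher genes became 2 (stricter gate), 2 (clusters), 1 (thinned) and 14 (at least 1 UMI), and the lower ones 2 (clusters) and 6 (at least 1 UMI). At least 100 UMIs, at most 1% mitochondrial UMIs and at most 2 markers of another glial class each left no member with enough UMIs in microglia. In neurons the median of 0.10 became 0.20 (thinned). The 2 higher genes became 1 with clusters, either scaling or equal cluster weights, 4 with at most 1% mitochondrial UMIs or at most 2 markers of another glial class, 6 (thinned) and 0 (1.5-fold), and the lower ones became 1 (thinned).

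Of single genes, Dhcr7 in astrocytes (0.66) became -0.069 and Srebf1 in the lineage (0.55) became -0.23 with thinned nuclei, where fewer UMIs remain. Of the other values for single genes, 379 stayed within the counting interval of the reported value and 14 moved beyond it. Msmo1 in astrocytes ranged between 0.51 and 0.62 over 12 alternatives, and Scp2 in neurons between 0.51 and 0.66 over 13. The causes were not tested. With 1 library for each genotype, spread between mice is unknown, and depth limits microglia and precursors most.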
